A study of Drosophila melanogaster with 3 samples.

Results

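The Rab and Vps genes of Drosophila melanogaster were followed here for binding of the protein encoded by CG17186 in embryos. Members were all protein-coding genes of the dm6 annotation whose symbol is Rab or RabX followed by a digit, or Vps followed by a digit, which gave 63 of 13945 coding genes on the 6 chromosome arms. They comprised 33 Rab and RabX genes, 27 Vps genes and 3 Rab regulators that share the prefix (Rab3GAP1, Rab3-GAP and Rab3-GEF). The measurement was chromatin immunoprecipitation with sequencing (ChIP-seq) in whole embryos aged 0 to 14 hours, males and females pooled, from a stable transgenic line in which CG17186 carries green fluorescent protein (GFP) at its C-terminus. Chromatin sonicated to 200 to 800 bp was immunoprecipitated with anti-GFP antibody. There were 3 biological replicates in 1 group, with no untagged or mutant group, and a control experiment that the labels name as possible was not analysed here. The sources used here do not give the promoter that drives the transgene or the state of the native gene, and whole embryos mix all embryonic cell types.

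Rab proteins are small GTPases that mark the membranes of the secretory and endocytic pathways and, when bound to GTP, recruit the tethers, motors and kinases that move and fuse vesicles. Vps proteins take their name from yeast vacuolar protein sorting mutants. Most are subunits of complexes that act with Rabs: HOPS and CORVET tether endosomes and lysosomes, GARP and EARP tether vesicles at the trans-Golgi network and at recycling endosomes, retromer retrieves cargo from endosomes, and ESCRT complexes sort ubiquitinated cargo into intralumenal vesicles. Many of these genes serve nearly every cell, but not all do: Rab3 is the Rab of synaptic vesicles. In the fly, a large number of housekeeping genes lie in divergent pairs that share a short promoter region.

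A gene was called bound when it had a transcription start site (TSS) within 500 bp of a peak summit. Of the 63 genes, 26 were bound in the reproducible set of 3814 peaks, the set that the authors retained by the irreproducible discovery rate procedure. The sequences below are the 121 bases centred on the summit at 10 of these genes. Most are shown for their large signal, and Rab35 and Rab40 because they hold the letters TATCGATA. The summits of Rab2, RabX1 and Vps50 are also strong and are not shown. All are read 5′ to 3′ on the strand of the named gene, from the RefSeq Release 6 assembly, which is dm6. Capitals mark TATCGATA (the DNA replication-related element that the factor DREF binds), the overlapping ATCGATAG, GGTCACACT (known as core promoter motif 1) and CAGCTG (an E-box), searched on both strands. The choice of TATCGATA and ATCGATAG came from earlier results on these same data. The windows lie at chr2L:4386016-4386136 (minus strand) for Vps53, chr2L:14355112-14355232 (plus) for Rab14, chr3R:25473132-25473252 (plus) for Vps33B, chr3L:13513264-13513384 (minus) for Vps36, chr3R:23992902-23993022 (plus) for Rab7 and chrX:1476954-1477074 (minus) for Rab27. Those of the others lie at chr3L:19871024-19871144 (minus) for Rab8, chr3R:9266877-9266997 (plus) for Vps16A, chrX:20159850-20159970 (minus) for Rab35 and chrX:12463075-12463195 (minus) for Rab40.
Vps53: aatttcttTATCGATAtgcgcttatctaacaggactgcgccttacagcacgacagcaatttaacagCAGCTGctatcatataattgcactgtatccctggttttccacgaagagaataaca
Rab14: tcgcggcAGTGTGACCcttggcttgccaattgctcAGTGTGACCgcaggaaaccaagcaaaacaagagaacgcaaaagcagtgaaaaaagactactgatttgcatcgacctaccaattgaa
Vps33B: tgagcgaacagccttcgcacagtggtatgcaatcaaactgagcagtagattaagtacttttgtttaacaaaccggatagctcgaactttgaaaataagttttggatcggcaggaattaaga
Vps36: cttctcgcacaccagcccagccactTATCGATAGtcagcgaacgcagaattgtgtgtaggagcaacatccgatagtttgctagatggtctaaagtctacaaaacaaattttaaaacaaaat
Rab7: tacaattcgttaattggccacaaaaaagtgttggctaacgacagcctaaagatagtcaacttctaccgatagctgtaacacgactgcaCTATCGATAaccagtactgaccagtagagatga
Rab27: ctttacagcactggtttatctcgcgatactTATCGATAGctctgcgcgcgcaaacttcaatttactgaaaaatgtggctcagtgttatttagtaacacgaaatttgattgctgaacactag
Rab8: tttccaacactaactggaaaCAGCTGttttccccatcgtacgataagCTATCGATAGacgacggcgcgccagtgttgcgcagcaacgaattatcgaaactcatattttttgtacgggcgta
Vps16A: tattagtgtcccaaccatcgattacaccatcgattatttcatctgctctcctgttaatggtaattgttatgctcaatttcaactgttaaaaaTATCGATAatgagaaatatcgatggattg
Rab35: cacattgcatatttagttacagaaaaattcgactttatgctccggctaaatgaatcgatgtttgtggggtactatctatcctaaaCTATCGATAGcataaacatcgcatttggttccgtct
Rab40: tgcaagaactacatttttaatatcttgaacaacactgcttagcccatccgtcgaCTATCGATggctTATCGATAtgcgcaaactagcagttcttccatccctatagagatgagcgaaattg

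The Vps53 window holds TATCGATA from 52 to 45 bases before the summit and CAGCTG from 6 to 11 bases after it. The Rab14 window holds GGTCACACT on the other strand at 2 places. In Rab8 and Rab35 the letters CTATCGATAG form a perfect palindrome, so both overlapping words occur there, with ATCGATAG on either strand. In the Vps33B window none of the searched words was found.

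By far the strongest member peak lay at Vps53, which encodes a subunit shared by the GARP and EARP tethers. Its peak spanned 943 bp (2L, 4385622 to 4386564), ranked 19 of 3814 and had a deposited signal of 6623, on the scale of a peak caller that no source used here names. This was 12 times the signal of the next member. To compare replicates, each signal was divided by the median signal of that replicate's peaks that overlap the reproducible set, so that 1 is this median. The overlapping peaks numbered 4985, 4525 and 5082 in replicates 1, 2 and 3, more than the reproducible peaks. A gene near the middle of the ranked set can therefore lie above 1, as did Vps60 (rank 1940, mean 1.23). On this relative scale Vps53 had 45.5, 39.7 and 46.3 in replicates 1, 2 and 3, or 43.8 ± 3.58 (SD, n = 3). All 3 values lay above every value of every other member. The 3 replicate summits fell within 3 bp of each other and the reproducible summit lay 14 bp upstream of the TSS, outside any annotated gene. No other coding TSS lay within 500 bp.

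**Figure D1:**
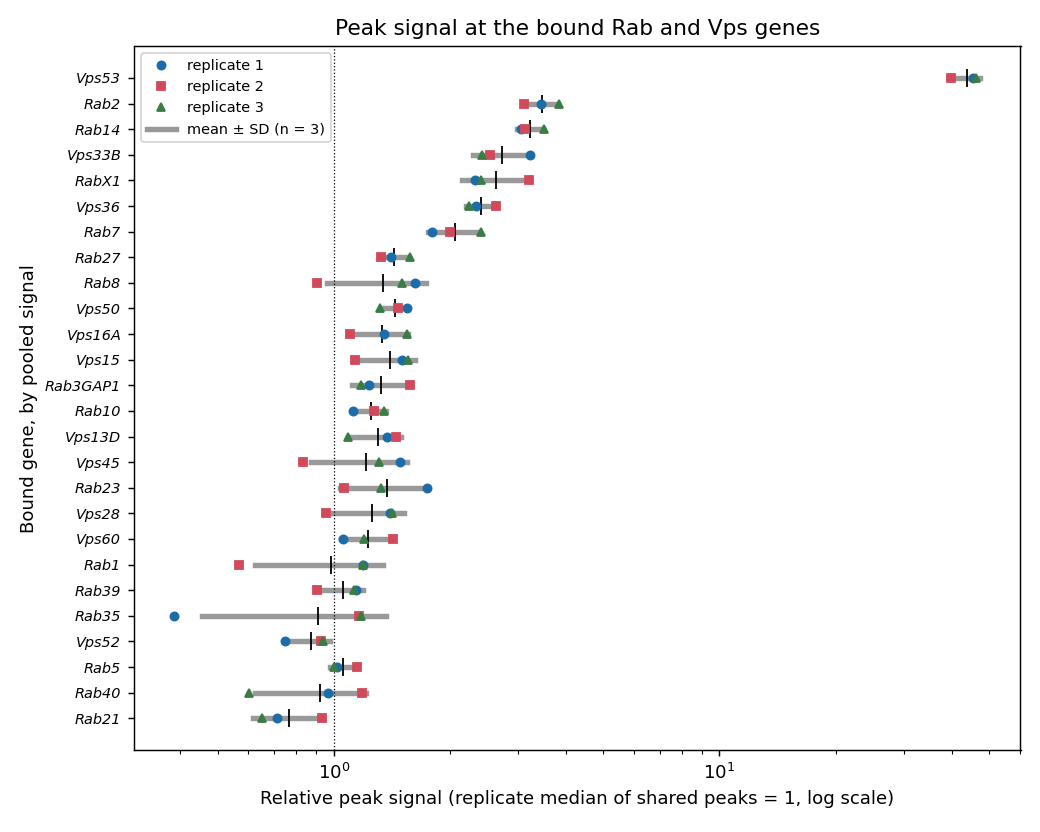
Relative peak signal (log scale, 1 = median of the replicate's peaks that overlap the reproducible set) at the 26 bound genes, ordered by pooled signal. Symbols are the 3 replicates, the tick is the mean and the grey bar is ± SD (n = 3). Vps53 stands alone at 39.7 to 46.3, while the others range from 0.386 to 3.83.

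Then came a group of 6 genes with relative means from 2.07 to 3.46. Rab2, a Rab of Golgi and late endosomal traffic, had 3.45, 3.12 and 3.83 (3.46 ± 0.356, SD, n = 3). Rab14, which acts between endosomes and the Golgi, had 3.05, 3.14 and 3.52 (3.23 ± 0.248). Their replicate values overlapped, and the difference between them, 0.230, was smaller than the larger SD of 0.356.

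Vps33B, a Sec1/Munc18 protein that pairs with Vps16B, had 3.23, 2.54 and 2.42 (2.73 ± 0.433). RabX1 had 2.32, 3.20 and 2.40 (2.64 ± 0.489). Vps36, a subunit of ESCRT-II, had 2.33, 2.63 and 2.25 (2.40 ± 0.201). These 3 genes overlapped in their replicate values and no order among them was resolved.

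Rab7, the Rab of late endosomes and lysosome fusion, had 1.80, 2.00 and 2.40 (2.07 ± 0.308). Rab7 marked the lower end of the group: its values lay above all those of the next gene by mean, Vps50, at 1.55, 1.46 and 1.32 (1.45 ± 0.117). Vps50 is the subunit that is specific to EARP. Rab27, a Rab of secretory granules, had 1.41, 1.33 and 1.57 (1.44 ± 0.127). Rab8, which acts in post-Golgi exocytosis, had 1.62, 0.908 and 1.51 (1.35 ± 0.384), with replicate 2 the low value.

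The other 16 bound genes had relative means from 0.766 (Rab21) to 1.40 (Vps15), on both sides of the median of 1. In order of pooled signal they were Vps16A, Vps15, Rab3GAP1, Rab10, Vps13D, Vps45, Rab23, Vps28, Vps60, Rab1, Rab39, Rab35, Vps52, Rab5, Rab40 and Rab21. Over the whole order of 26 genes by mean there were 25 pairs of neighbours. In 4 of them the means differed by more than the larger SD, and in only 2 did the replicate values not overlap (Vps53 above Rab2, and Rab7 above Vps50). The coefficient of variation over replicates had a median of 15.5% and ran from 7.54% at Rab5 to 49.9% at Rab35. At Vps50, Rab10 and Rab5 the strongest replicate peak was in some replicate not the one nearest to the reproducible summit. With the nearest peak taken instead, a choice made after seeing the data, the lowest coefficient was 7.66% at Rab14. Rab35, which acts in recycling and actin assembly, had 0.386 in replicate 1 against 1.17 and 1.18 in replicates 2 and 3.

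In rank, 1 member stood among the 100 strongest reproducible peaks and 7 among the 500 strongest (3.85% and 26.9% of the bound members, beside 3.35% and 15.7% of all bound coding genes). The median rank was 1384, with 18 genes above the middle of the ranked set (69.2%, beside 55.7%) and 8 below it. The median signal of the bound members was 198, against 179 over all bound coding genes.

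The 26 bound genes were 41.3% of the members, where 28.0% of all coding genes were bound. In the relaxed pooled list, which also holds background, 50 members had a summit (79.4%, against 55.2% of coding genes). In the relaxed lists of replicates 1, 2 and 3 it was 50, 44 and 48 members (79.4%, 69.8% and 76.2%), where the shares over all coding genes were 57.6%, 51.9% and 57.3%. With each replicate limited to its own 3814 strongest peaks, 27, 26 and 25 members were bound (42.9%, 41.3% and 39.7%), beside 27.5%, 27.0% and 26.6% of all coding genes. The member share was above that of all coding genes in each list. These lists are not independent of the reproducible set, which equals the strongest part of a pooled list made from the replicates' own reads. All 26 bound genes had a peak in all 3 relaxed replicate lists. Nearly all bound coding genes had one in each list taken alone: 3895, 3871 and 3897 of 3905 in replicates 1, 2 and 3. Of the 63 members, 21 were in all 3 lists of strongest peaks, beside 2689 of 13945 coding genes. All 21 were bound. The other 5 bound genes (Rab1, Rab35, Vps52, Rab40 and Rab21) were in 1 or 2 of those lists, and all 5 lay in the weaker part of the reproducible set. Rab1, the Rab of transport from endoplasmic reticulum to Golgi, had its low value in replicate 2, at 0.568 against 1.19 in each of the other replicates.

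The role groups are small, and their counts are given as descriptions beside the 28.0% of all coding genes. By role, the tethers of the trans-Golgi network and recycling endosomes had 3 of 4 genes bound. Beside Vps53 these were Vps50 and Vps52, the latter at 0.748, 0.929 and 0.939. Vps51, the remaining subunit shared by GARP and EARP, had no peak in any list. A relative signal therefore varied from 43.8 down to no peak among subunits of one complex.

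Of the HOPS and CORVET subunits Vps11, Vps16A, Vps39 and Vps8, 1 of 4 was bound: Vps16A, which both tethers contain, at 1.35, 1.10 and 1.55. Of the separate pair formed by Vps33B and Vps16B, Vps33B was bound. Among those not bound, Vps16B, Vps39 and Vps8 had pooled peaks of lower signal, from 68.2 to 70.9. Among 9 ESCRT genes, 3 were bound (33.3%), near the 28.0% of all coding genes: Vps28 of ESCRT-I, Vps36 of ESCRT-II and Vps60 of the ESCRT-III family. None of the 3 retromer genes (Vps26, Vps29 and Vps35) was bound, though all had pooled peaks, with a median signal of 66.0. The class III PI3-kinase adaptor Vps15 was bound at 1.504, 1.138 and 1.559. Vps45, a partner of endosomal SNARE proteins, was bound at 1.49, 0.834 and 1.31. Of the bridge-like lipid transfer proteins, Vps13D was bound at 1.37, 1.45 and 1.09, while Vps13 and Vps13B were not.

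Among Rabs, 4 of 6 genes of early and recycling endosomes were bound: Rab14, Rab35, Rab5 and Rab21. Rab5, the Rab of early endosome fusion, had 1.02, 1.15 and 1.00 by the strongest peak near any of its TSSs, which in replicates 2 and 3 was not the peak nearest to the reproducible summit. That nearest peak had 1.02, 1.13 and 0.851. Rab11, the Rab of recycling endosomes, was below the reproducible set, with a pooled signal of 59.99 and a peak in the relaxed lists of replicates 2 and 3. Of 5 exocytic Rabs, 3 were bound (Rab27, Rab8 and Rab10). Neither Rab26 nor Rab3, the Rab of synaptic vesicles, had a pooled peak, though each had a peak in a relaxed replicate list. Of 7 Golgi and endoplasmic reticulum Rabs, 3 were bound (Rab2, Rab1 and Rab39), and the other 4 all had pooled peaks. Rab23, known in the fly for planar polarity, and Rab40, which joins a ubiquitin ligase, were both bound. RabX1 was the only one of 5 RabX genes bound. The count was 14 of 33 for Rab and RabX genes (42.4%) and 11 of 27 for Vps genes (40.7%). Without 5 genes whose promoter windows are largely repeated sequence, described further on, the Rab and RabX count was 14 of 28.

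**Figure D2:**
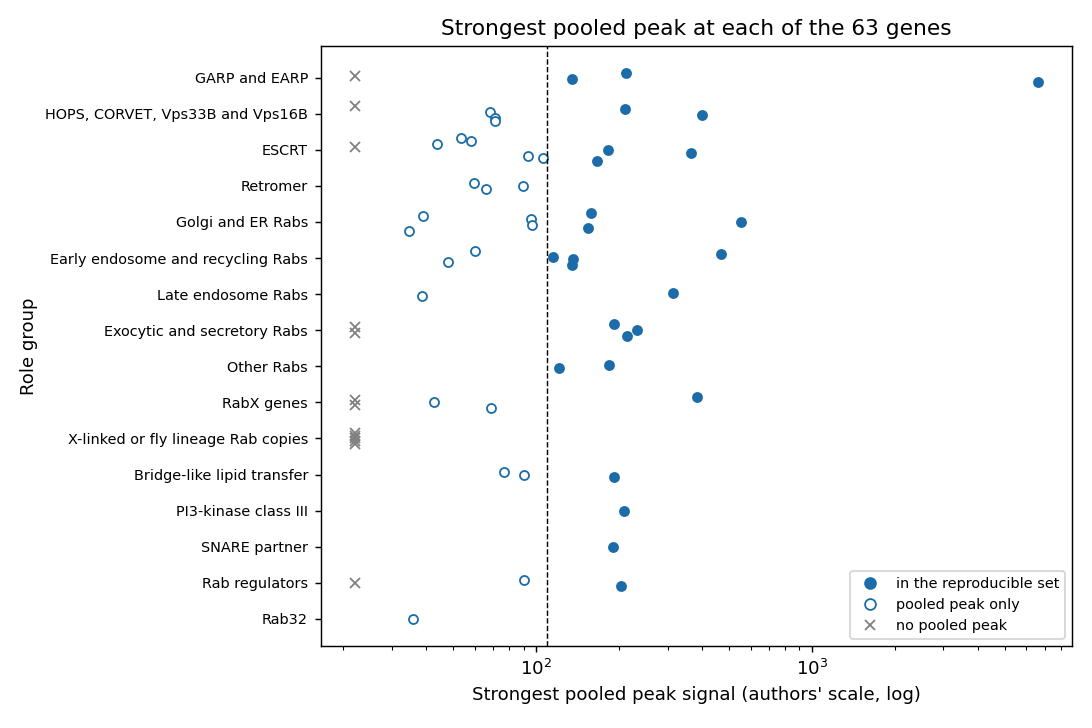
Strongest pooled peak signal (the authors' scale, log axis) within 500 bp of a TSS for each of the 63 genes, by role group, with Vps33B and Vps16B in the row of HOPS and CORVET. Filled points are in the reproducible set, open points are in the pooled list only, crosses at the left edge have no pooled peak, and the dashed line is the lowest signal of the reproducible set, 109. Most groups hold genes on both sides of the line, and the Rab9 copies on X have no peak.

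Of the 37 genes that were not bound, 24 had a pooled peak and 13 had none. With the bound genes included, 79.4% of members had a pooled peak, beside 55.2% of all coding genes. The strongest pooled peaks below the reproducible set were at Vps4 (signal 106), the ATPase that disassembles ESCRT-III, Rab30 (96.8), Rab19 (95.9), Vps37B (93.2) and Rab3-GAP (90.5). Just inside the set stood Rab21 (114.7), Rab40 (120.6), Rab5 (135), Vps52 (135) and Rab35 (136), and the lowest signal in the set was 109. Over all 63 genes, with those without a peak at 0, the median strongest pooled signal was 90.4, against 40.3 over all coding genes. No peak in any list was found at 9 genes: Rab3-GEF, Rab9D, Rab9Db, Rab9E, Rab9Fa, Rab9Fb, RabX2, RabX5 and Vps51. The same count over all coding genes is not given here.

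For 5 of these 9 genes, all on X, much of the promoter sequence is repeated elsewhere, so short reads may not map to one place. In the windows around the TSSs, the share of 32-base words that occur once on the 6 arms was 25.8% for Rab9E, 30.1% for Rab9Fa, 38.7% for Rab9Db, 55.7% for Rab9D and 68.0% for RabX2. The other 58 members had 90% or more. The absence of peaks at those 5 genes is therefore uncertain, since the sources used here give neither the read length nor the treatment of repeated reads. Rab9Fb, at 94.9%, also had no peak. Among the 58 genes with mostly unique windows, 26 were bound (44.8%), beside 28.9% of the 13368 coding genes that meet the same limit.

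Many bound members share their promoter region with a gene on the opposite strand. Of the 63 genes, 37 (58.7%) had an opposite-strand coding TSS within 1000 bp, where 36.9% of all coding genes had one, and in each of the 37 it lay upstream, in a divergent pair. Of the 37, 22 were bound (59.5%), beside 51.7% of all coding genes with such a partner (2658 of 5141). Without a partner, 4 of 26 members were bound (15.4%), beside 14.2% of all coding genes (1247 of 8804). The 4 were Vps53, Vps28, Rab1 and Rab35. Those without a partner and not bound include Rab9D, Rab9Db, Rab9E, Rab9Fa and RabX2, for which the absence of a peak is uncertain, as described above. A gene also counts as bound by a summit at its partner's TSS when that summit lies within 500 bp. The higher share with a partner can therefore follow in part from the definition. Within each arrangement the member share was near that of all coding genes. With the all-gene share applied to each arrangement, 22.8 of the 63 members (36.2%) would be bound, against the 26 observed and 28.0% of coding genes in general. This count rests on the same definition of bound.

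**Figure D3:**
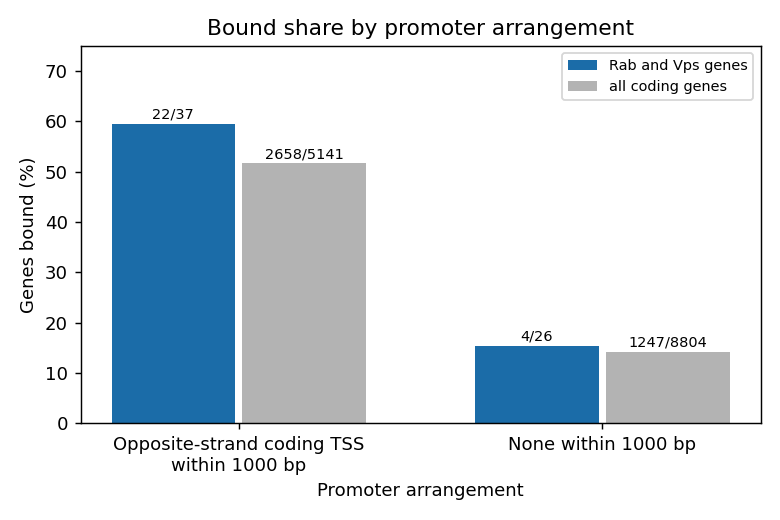
Percentage of genes with a reproducible summit within 500 bp of a TSS, for genes with and without an opposite-strand coding TSS within 1000 bp. Blue bars are Rab and Vps genes, grey bars are all coding genes, and the fractions give bound over total. Bound shares were 59.5% and 51.7% with a partner and 15.4% and 14.2% without one.

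At 8 of the 26 genes the strongest summit lay nearer to the TSS of another gene, in each case the divergent partner: Fur1 at Vps33B, Liprin-beta at Vps36, PIG-A at Vps50, TrpRS at Vps16A, CG9393 at Vps45, plx at Rab23, Pdp at Rab39 and Elp4 at Vps52. At Rab7 the summit was equally far from Epp, at 46 bp. A peak in such a short shared region cannot be assigned to one gene of the pair. When a summit was given to its nearest coding TSS only, 19 members kept one (30.2%, beside 20.2% of all coding genes). Vps33B is among them because a second summit, with signal 291, lay 87 bp upstream of its own TSS. RabX1 also had a second summit, of signal 217, in the 5′ UTR of its partner mi. The second summit at Rab5 had a signal of 113 and lay in an intron of Rab5, 324 bp upstream of an inner TSS.

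The summits lay just upstream of the start sites. The offset from the nearest TSS of the member had a median of −55.0 bp and ran from −402 bp at Rab23 to 27 bp at Rab14, with 22 of 26 upstream. Within 100 bp lay 16 (61.5%), against 56.8% of all bound coding genes, whose median offset was −75.0 bp. Of the 29 summits at the 26 genes, 21 lay outside any annotated gene, 7 in a 5′ UTR and 1 in an intron. The shares over all bound coding genes are not given here for these places or for upstream summits. The replicate summits nearest to the reproducible one spread over a median of 66.5 bp, from 3 bp at Vps53 and Rab8 to 176 bp at Rab10, and in 12 genes over no more than 50 bp. At Vps50 and Rab5 the strongest replicate peak in the window was another one, more than 200 bp from the reproducible summit. At the outer edge of the 500 bp window, Rab23 lay inside at 402 bp. Rab4, Rab26 and Rab18 lay outside it at 657, 743 and 804 bp, with the summits nearest to UQCR-6.4, Pc and RpL35.

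**Figure D4:**
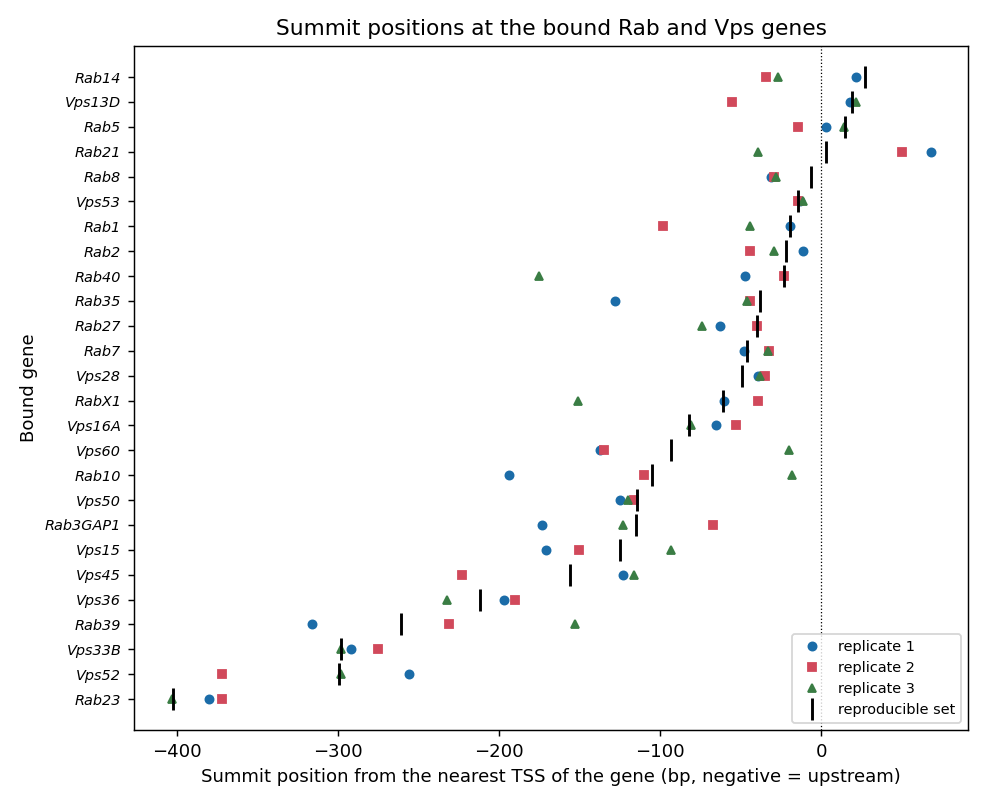
Position of peak summits relative to the nearest TSS of each bound gene (bp, negative is upstream). Black ticks are the reproducible set and symbols are the nearest summits of the 3 replicates. At Vps53 the replicate summits span 3 bp, at Rab10 176 bp, and the genes at the bottom have summits 200 bp or more upstream, nearer to the divergent partner.

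Within 50 bp of the summit, TATCGATA occurred at 8 of the 29 member summits (27.6%), beside 303 of all 3814 reproducible summits (7.94%). The 8 were at Rab2, Vps36, Rab7, Rab27, Rab8, Vps16A, Rab35 and Rab40. ATCGATAG, which overlaps it, occurred at 7 (24.1%, beside 8.15%). The shares beside are over every reproducible summit, near a TSS or not, while member summits all lie within 500 bp of a TSS. Shares over summits near coding TSSs alone are not given here. Of the 8 genes, 6 stood above the middle of the ranked set, and Rab35 and Rab40 below it. Among all 26 bound members, 18 (69.2%) stood above it. Over all reproducible summits TATCGATA was found at 0 of the 50 strongest and at 8.08% beyond rank 100. The Vps53 summit, at rank 19, has it from 52 to 45 bases away and so partly outside this window. Of the 8 genes with the word within 50 bp, all but Rab35 had a divergent partner, as had 22 of the 26 bound members (84.6%). In the 300 bases around the TSSs (250 before and 50 after), TATCGATA was present at 11 of the 26 bound genes and 6 of the 37 others. Together this was 27.0% of the members, where 9.36% of all coding genes, bound or not, hold it. The share over bound coding genes is not given here. CAGCTG was found at 3 summits (10.3%, beside 8.39%), close to the overall share in this window but not within 100 bp (24.1%, beside 14.8%). GGTCACACT occurred at 1 summit (3.45%, beside 4.93%), as did CACGTG (3.45%, beside 1.34%) and CAGGGCTG (3.45%, beside 2.36%). A match is a description of letters and not of a bound factor.

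The word AACAGCAC, taken from earlier results on these data, occurred at 0 of the 29 member summits, and at 1.97% of all summits. It was frequent at the top of the list, at 19 of the 25 summits ranked 1 to 25 (76.0%) and 20 of those ranked 26 to 50 (80.0%). It was rare beyond rank 100, at 0.781%, where all members but Vps53 stand. Vps53, at rank 19, belongs to the top range and lacked it. Its window has the shorter ACAGCAC from 17 to 11 bases before the summit, a word chosen after that sequence was seen. ACAGCAC was present at 21 of the 25 summits of ranks 1 to 25 (84.0%) and at 2.26% beyond rank 100.

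A wider list of membrane traffic genes without these symbols was counted in the same way. Of 54 matched genes, 35 were bound (64.8%), beside 28.0% of all coding genes. By function, 12 of 19 SNARE genes, 6 of 8 exocyst genes, 7 of 9 genes that handle Rabs, 4 of 7 further ESCRT genes and 1 of 3 further HOPS genes (car) were bound. The rest were 2 of 4 retromer and sorting nexin genes, 2 of 3 PI3-kinase genes and scat, the subunit that is specific to GARP. Some of these 35 genes count as bound by a summit nearer to another gene's TSS, such as PAPLA1 at Rbsn-5, Vha55 at Snx3 and FucTB at scat. The list was drawn up with earlier results on these data known, so its share is no independent evidence. The strongest was lsn, which encodes the ESCRT-II partner of Vps36, with a signal of 5155 at rank 31 and relative signals of 35.9, 25.3 and 39.8. All 3 values at lsn lay above all 3 at Vps36. Syx17, the autophagosomal SNARE, followed with a signal of 669 and relative signals of 4.33, 3.85 and 5.02. At scat the peak had a signal of 129, at 0.973, 1.24 and 0.651, far below Vps53.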

How the data were processed

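Data were ChIP-seq peak lists from 3 biological replicates, as the labels call them. Per the deposited read-me tables, the authors called relaxed lists of peaks and background on each replicate and on the pooled alignments against a control alignment, and thresholded them by irreproducible discovery rate. The signal used here is column 7 of the deposited 10-column lists, on the authors' scale. Aligner, caller, versions and cutoff were not given in the sources used here. Peaks numbered 3814 in the reproducible set, 23428 in the pooled list, and 30000, 26139 and 30000 in replicates 1, 2 and 3. These files give no read counts, so depth is unknown.

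Summits were matched to coding TSSs of Ensembl release 115 (the FlyBase annotation of dm6) with Python 3.11.15 and NumPy 2.4.6, and figures were drawn with matplotlib 3.10.9. The matching was tested on simulated summits. All bound members were named, the 10 strongest with replicate values. Sequences came from 10 summits, none on arm 2R. The comparisons are descriptions with no test, and members, lists and words were chosen with earlier results of these data known. The alternatives changed the window, the TSS used, the peak list, the scale, the word window and the replicates kept. The dm3 lists were not used.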

Additional observations from a re-analysis of the deposited data

How the results depend on the processing

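Peaks near 1 gene are not replicates, and unknown depth means that a gene without a peak may lie under the detection limit. With the relaxed pooled list, 50 members were bound in place of 26, since that list holds more peaks. With windows of 250 and 1000 bp the count was 23 (36.5%, beside 24.7% of coding genes) and 29 (46.0%, beside 30.4%), and the stronger part of the reproducible set alone gave 18 (28.6%, beside 15.6%). Leaving out each replicate in turn, that is, asking for a strong peak in both others, gave 22 to 23 (34.9% to 36.5%, beside 21.4% to 22.3% of coding genes). Within 100 bp, CAGCTG was found at 7 member summits in place of 3 (24.1%, beside 14.8% of all summits). Within 50 bp, ACAGCAC, chosen after seeing the data, was found at 1 summit where AACAGCAC was at 0, and within 100 bp at 2 (6.90%, beside 5.24% of all summits). The median offset in replicate 3 was −87.0 bp against −55.0 bp, and the cause was not tested. Dividing by the median of the whole replicate list raised the relative signals, by construction (Vps53 to 127, Rab2 to 9.99). Ordering by mean rank kept 9 of the 10 strongest, with Vps15 in place of Rab8.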

Other observations

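Reproducible peaks also stood within 2000 bp of some unbound members, beyond the 500 bp window. A peak of rank 106 with signal 667 lay 1349 bp downstream of the RabX5 TSS, where RpL23A is the nearest gene. A peak of rank 552 with signal 293 lay 1939 bp downstream of the Rab32 TSS where Rme-8 is the nearest gene. At Rab11 a reproducible peak of signal 183 lay 1866 bp downstream of its nearest TSS, with Rab11 itself as the nearest coding gene.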
